A study of Homo sapiens with 11 samples.

Results

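The genes described here are the cadherins CDH1 and CDH2, the intermediate filament gene VIM, the transcription factors ZEB1, ZEB2, SNAI1 and SNAI2, the adhesion molecule EPCAM and the splicing regulators ESRP1 and ESRP2. They are 10 of the 58735 genes counted, picked by name with earlier results of these data known. They were found through their Ensembl identifiers in GENCODE release 29. They were measured by poly(A) RNA sequencing in 11 libraries from PANC-1 and AsPC-1, established human pancreatic cancer cell lines. The groups were PANC-1 with small interfering RNA (siRNA) against MYEOV (n = 3), PANC-1 control (n = 3), AsPC-1 with MYEOV siRNA (n = 3) and AsPC-1 control (n = 2), and RNA was taken 48 hours after transfection. PANC-1 was grown in DMEM and AsPC-1 in RPMI medium, so line and medium cannot be told apart. The labels call the controls wild type and untreated, while the protocol lists a negative-control siRNA as well. What the control cells received is therefore not settled, and the effect of transfection itself cannot be told apart from that of MYEOV siRNA. The protocol lists 2 siRNAs against MYEOV, and the labels do not tell which of them each library had. Separate cultures are not mentioned either, so the p-values speak only of variation among these libraries, and it may be technical.

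Epithelial cells hold together through E-cadherin (CDH1) and EPCAM at the cell surface. In epithelial-mesenchymal transition (EMT), a programme much studied in pancreatic carcinoma, SNAIL and ZEB transcription factors repress these genes, while N-cadherin (CDH2) and vimentin (VIM) become more abundant. ESRP1 and ESRP2 keep the splicing pattern of epithelial cells, and microRNAs of the miR-200 family, which silence ZEB1 and ZEB2 messages, are themselves repressed by the ZEB proteins.

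Libraries held 12113093 to 15066456 counts on genes. MYEOV fell to 54.4% of control in PANC-1 and to 35.9% of control in AsPC-1 (edgeR quasi-likelihood test, adjusted p = 4.19e-06 and 1.95e-16). All 6 ductal markers examined were detected in every group. Their summed level was 2164 to 2712 in counts-per-million (CPM) units in PANC-1 libraries and 17169 to 17660 CPM in AsPC-1 libraries. Most of it came from KRT8, KRT18 and KRT19. The markers split between the controls, with 3 lower and 2 higher in PANC-1 (edgeR, adjusted p under 0.05). The higher ones were SOX9 (174 CPM in PANC-1, 91.1 in AsPC-1) and MUC1 (33.7 and 25.8 CPM). KRT7 was low in both, at 1.46 CPM in PANC-1 controls and 1.56 CPM in AsPC-1 controls. The endothelial markers summed to at most 1.04 CPM and the acinar and islet markers to at most 0.167 CPM in any library. Mitochondrial genes took 6.21 to 6.82% of the counts in PANC-1 and 13.2 to 13.9% in AsPC-1, and the part of this in the differences between lines was not tested. PANC-1 control replicate 2 lay farthest from its fellow replicates.

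The lines differed widely in the genes of the cell surface and in the identity of the SNAIL factor, and less in ZEB1. In PANC-1 controls, CDH1, EPCAM, ESRP1 and SNAI2 were lower than in AsPC-1 controls, and CDH2, VIM, ZEB1, SNAI1 and ESRP2 were higher. ZEB2 did not pass the test. That makes 9 of the 10 genes called at an adjusted p under 0.05 (edgeR, Benjamini-Hochberg over 16182 genes), 5 higher and 4 lower. Across all genes tested, 76.4% were called, 40.3% as higher and 36.1% as lower, so a call by itself is the usual outcome here. A difference of at least 4-fold was less common, at 23.5% of all genes, and 6 of the 10 genes had one: CDH1, CDH2, SNAI1, SNAI2, EPCAM and ESRP1. Since the 10 genes were chosen with earlier results of these data known, this contrast is a description and not a test. In bulk RNA, fewer cells expressing a gene and less RNA per cell cannot be told apart.

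**Figure D1:**
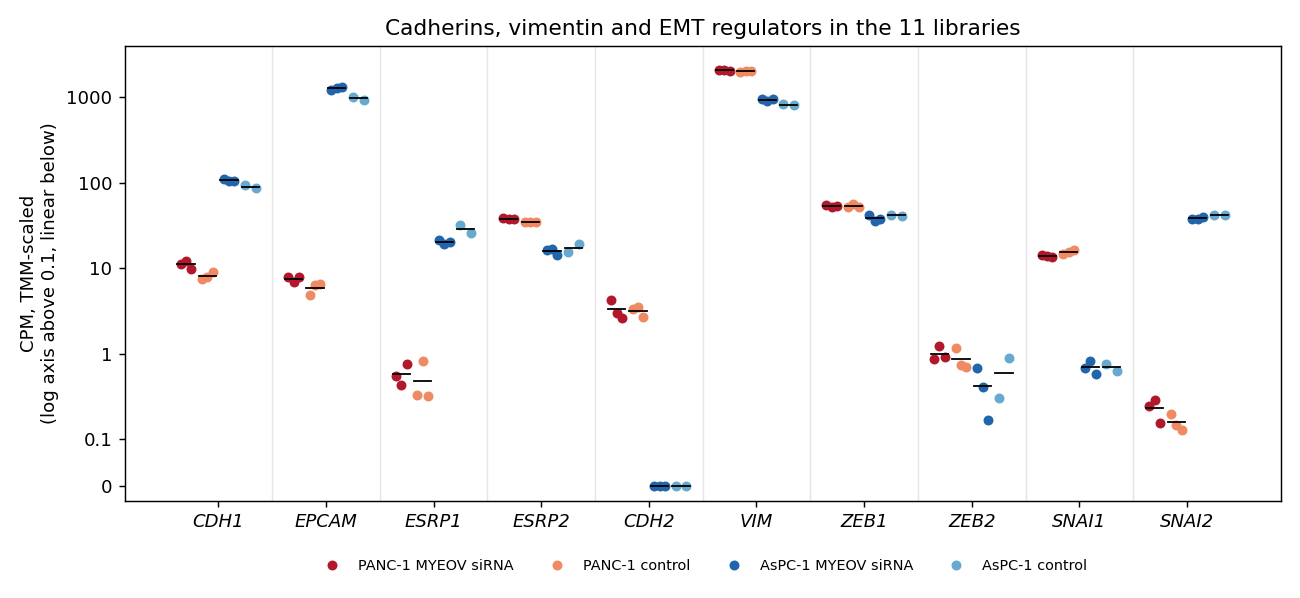
CPM of each gene in every library (points) with the group mean (line), on an axis that is logarithmic above 0.1 and linear below. CDH1, EPCAM, ESRP1 and SNAI2 lie lower in all 6 PANC-1 libraries than in all 5 AsPC-1 libraries, CDH2 has 0 counts in every AsPC-1 library, and the siRNA and control libraries of a line lie close together.

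CDH1 (ENSG00000039068, chromosome 16, 68737225 to 68835548, plus strand, GRCh38 annotation) encodes E-cadherin, the adhesion receptor of epithelial adherens junctions. It measured 7.50, 7.86 and 8.97 CPM in the 3 PANC-1 controls, against 93.6 and 86.6 CPM in the AsPC-1 controls (counts scaled by trimmed mean of M-values, TMM, factors over all libraries). The groups did not overlap, and the PANC-1 level was 8.87% of the AsPC-1 level (edgeR log2 fold change -3.50 with SE 0.095, adjusted p = 4.41e-14). EPCAM (ENSG00000119888, chromosome 2, 47345158 to 47387601, plus strand) encodes an epithelial cell-surface glycoprotein that is also widely used to capture carcinoma cells. It measured 4.82, 6.31 and 6.51 CPM in PANC-1 controls, against 1015 and 938 CPM in AsPC-1 controls. PANC-1 thus held 0.593% of the AsPC-1 level (edgeR log2 fold change -7.40 with SE 0.089, adjusted p = 1.34e-17). Only 5.61% of the genes tested differed by more, in either direction. Neither gene was silent in PANC-1: the 3 controls together held 364 counts of CDH1 and 263 of EPCAM.

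CDH2 (ENSG00000170558, chromosome 18, 27950966 to 28177446, minus strand) encodes N-cadherin, the cadherin of neural and mesenchymal cells. It had 51, 48 and 42 counts in PANC-1 controls and 0 counts in both AsPC-1 controls. The 3 AsPC-1 siRNA libraries had 0 counts as well, whereas the PANC-1 siRNA libraries had 69, 42 and 34. Taking 3 counts per library as the most that a count of 0 allows, which is 0.247 CPM in AsPC-1 controls, CDH2 was at least 12.8-fold higher in PANC-1 controls (edgeR adjusted p = 2.44e-07). Intervals and such limits cover counting error only. RNA of both cadherins was thus detected in PANC-1, and RNA of CDH1 but not CDH2 in AsPC-1.

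VIM (ENSG00000026025, chromosome 10, 17228259 to 17237593, plus strand) encodes vimentin, the intermediate filament protein of mesenchymal cells. It measured 1969, 2042 and 2015 CPM in PANC-1 controls, against 841 and 807 CPM in AsPC-1 controls. The difference was 2.40-fold (edgeR log2 fold change 1.26 with SE 0.050, adjusted p = 3.80e-12), and 34.2% of all genes tested differed by more. VIM was thus abundant in AsPC-1 too, beside the high CDH1 and EPCAM of that line. VIM-AS1, whose exons overlap VIM on the opposite strand, had 22, 20 and 25 counts in PANC-1 controls and 41 and 50 in AsPC-1 controls. How the counting treated strand is not stated in the labels or processing notes, so reads in the shared stretch cannot be told apart, and the part of this overlap in the VIM values was not tested.

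**Figure D2:**
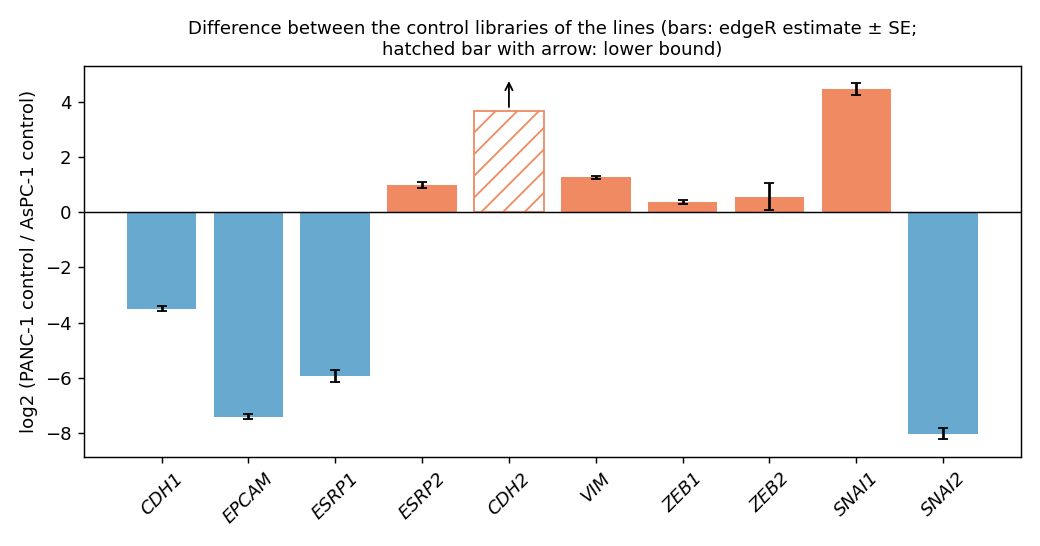
Log2 difference between PANC-1 and AsPC-1 control libraries for each gene, as the edgeR estimate with its SE; the hatched bar with an arrow is the lower bound for CDH2, which had 0 counts in AsPC-1. EPCAM at -7.40 and SNAI2 at -8.01 lie lowest, and ZEB1, ZEB2, ESRP2 and VIM lie closest to 0.

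SNAI1 and SNAI2 encode SNAIL and SLUG, zinc-finger repressors that bind E-box sequences in the CDH1 promoter. The lines used opposite members. SNAI1 (ENSG00000124216, chromosome 20, 49982999 to 49988886, plus strand) had 227, 213 and 259 counts in PANC-1 controls, against 10 and 7 counts in AsPC-1 controls. On the CPM scale this was 15.6 ± 0.78 in PANC-1 and 0.690 ± 0.098 in AsPC-1 (mean ± SD, n = 3 and 2), a 21.8-fold difference (edgeR log2 fold change 4.45 with SE 0.21, adjusted p = 3.62e-11). SNAI2 (ENSG00000019549, chromosome 8, 48917604 to 48921740, minus strand) ran the other way, with 3, 2 and 2 counts in PANC-1 controls and 552 and 473 in AsPC-1 controls (edgeR log2 fold change -8.01, SE 0.19; adjusted p = 9.00e-15). With so few counts, the ratio of the PANC-1 level to the AsPC-1 level was 0.00373, with a 95% counting interval of 0.0015 to 0.00771. All 6 PANC-1 libraries lay above all 5 AsPC-1 libraries for SNAI1, and all 6 lay below them for SNAI2.

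Per kilobase of annotated exon, which allows levels of different genes to be added, SNAI1 made up 99.4 to 99.6% of the summed SNAI1 and SNAI2 level in PANC-1 controls and 2.89 to 3.52% in AsPC-1 controls. These shares do not depend on how libraries are scaled to one another, but the sums do. Both depend on the length taken for each gene, the union of all its annotated exons, which can exceed a single message. The summed level was 9.30 ± 0.45 RPKM (TMM-scaled CPM per kilobase) in PANC-1 controls and 12.8 ± 0.055 RPKM in AsPC-1 controls, a ratio of 0.729 (SD, n = 3 and 2). In TPM, per-length values scaled to the same total in every library, it was 34.8 ± 1.8 in PANC-1 and 33.1 ± 0.79 in AsPC-1, a ratio of 1.05. The TPM scale lifts every PANC-1 to AsPC-1 ratio by 1.44-fold relative to TMM scaling. It turned the direction of none of the 10 genes, though it did so for some of the list genes given further on.

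**Figure D3:**
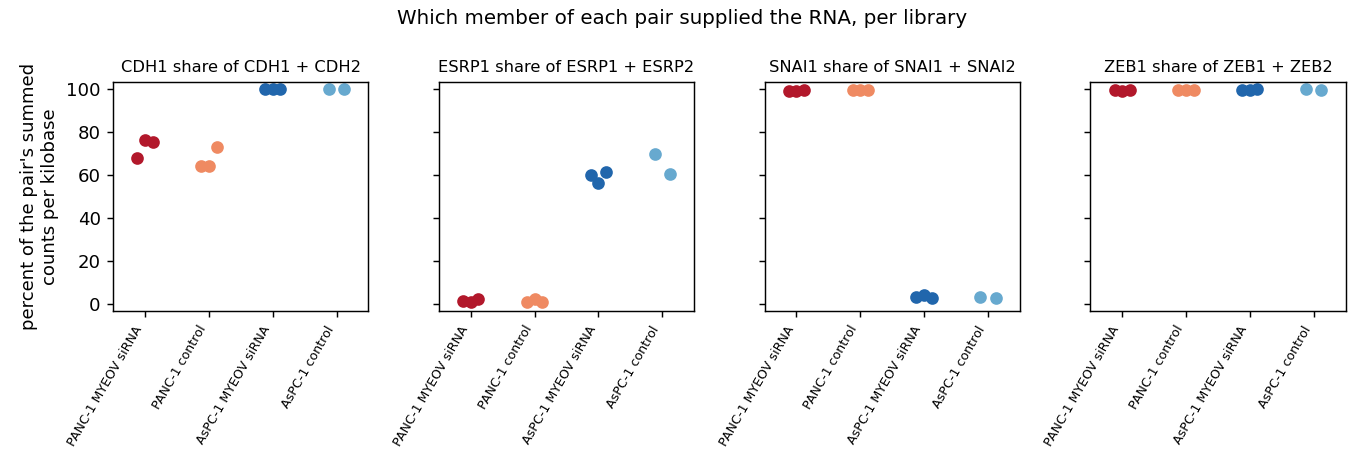
Share of each pair's summed counts per kilobase that came from the gene named first, in percent, for each library. In the controls SNAI1 supplied 99.4 to 99.6% in PANC-1 and 2.89 to 3.52% in AsPC-1, ESRP1 supplied 1.04 to 2.61% in PANC-1 and 60.6 to 70.0% in AsPC-1, and ZEB1 supplied nearly all in every library.

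ZEB1 and ZEB2 encode zinc-finger homeobox repressors of CDH1 and of the miR-200 genes. ZEB1 (ENSG00000148516, chromosome 10, 31318495 to 31529814, plus strand) measured 52.6, 57.0 and 52.6 CPM in PANC-1 controls, against 41.7 and 41.0 CPM in AsPC-1 controls. The difference was 1.28-fold (edgeR log2 fold change 0.36 with SE 0.079, adjusted p = 7.26e-04) without overlap between the groups, and 72.3% of all genes tested differed by more. The ratio of the mean levels was 1.31 on the TMM scale and 1.89 on the TPM scale. ZEB1 RNA was present in AsPC-1 too, with 550 and 463 counts in the controls. ZEB1-AS1, which overlaps its exons on the opposite strand, had 47, 64 and 59 counts in PANC-1 controls and 124 and 94 in AsPC-1 controls. ZEB2 (ENSG00000169554, chromosome 2, 144364364 to 144524583, minus strand) was scarce everywhere, with 18, 10 and 11 counts in PANC-1 controls and 4 and 10 in AsPC-1 controls. The ZEB2 groups overlapped and the difference was not called (edgeR log2 fold change 0.57 with SE 0.50, adjusted p = 0.312). ZEB1 supplied at least 99.2% of the pair's level per kilobase in every library, with exon lengths of 8650 bases for ZEB1 and 25058 for ZEB2.

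The miR-200 family reads the 3′ untranslated regions of ZEB1 and ZEB2 through its seed, bases 2 to 8 of the mature microRNA. The sequences below show the 2 seeds of the family, in capitals (RefSeq, GRCh38.p14).
miR-200b-3p: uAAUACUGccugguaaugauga
miR-200c-3p: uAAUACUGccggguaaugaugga
miR-429: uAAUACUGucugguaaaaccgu
miR-200a-3p: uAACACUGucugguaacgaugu
miR-141-3p: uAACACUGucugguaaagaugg
The seed shared by miR-200b-3p, miR-200c-3p and miR-429 pairs with CAGTATT in the message, and that shared by miR-200a-3p and miR-141-3p pairs with CAGTGTT. In the longest annotated 3′ untranslated region of each gene, read on the message strand, ZEB1 held 6 copies of CAGTATT and 3 of CAGTGTT. ZEB2 held 5 and 4, SNAI2 held 1 and 0, ESRP1 held 1 and 1, and the other 6 genes held neither. Across 19146 genes with such a region, 16.02% held CAGTATT and 18.34% held CAGTGTT. Some of the matches in the ZEB messages are printed with their surroundings, the matched bases in capitals.
ZEB1, chr10:31527622-31527650, plus strand: ttttatcttatCAGTATTatcactcttat
ZEB1, chr10:31529217-31529245, plus strand: ttcatcattatCAGTATTttctttggaaa
ZEB1, chr10:31528786-31528814, plus strand: atttgatttaaCAGTGTTatgttaacatt
ZEB2, chr2:144389042-144389070, minus strand: ctaccatacatCAGTATTtttattattat
A match is a word in the message and not a measured binding site.

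Mature microRNAs are not captured in poly(A) libraries, but a few reads were counted on the microRNA gene rows, where they can come from the longer precursor transcripts. These rows were looked at after other values were seen and are given as a description without a test. MIR429 had 0 counts in all 6 PANC-1 libraries, against 20, 18 and 27 counts in AsPC-1 siRNA libraries and 21 and 20 in AsPC-1 controls. MIR200A and MIR200B, which lie beside it on chromosome 1, each summed to 0 counts over the PANC-1 libraries and 40 over the AsPC-1 libraries. The host gene of the chromosome 12 cluster, MIR200CHG, had 0 counts in PANC-1 and 14 in AsPC-1. MIR141 had 0 counts in PANC-1 and 1 in AsPC-1, and MIR200C had 0 in all 11 libraries.

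**Figure D4:**
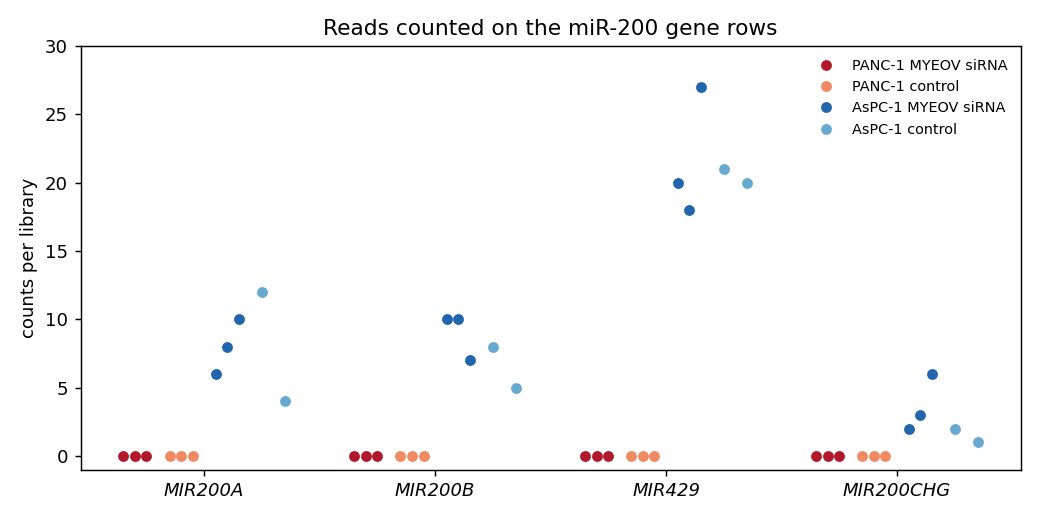
Counts per library on the gene rows of MIR200A, MIR200B, MIR429 and the host gene MIR200CHG. All 6 PANC-1 libraries sit at 0 for each row, and the 5 AsPC-1 libraries reach 18 to 27 counts for MIR429.

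ESRP1 and ESRP2 encode related RNA-binding proteins that direct epithelial exon choice. ESRP1 (ENSG00000104413, chromosome 8, 94641074 to 94707466, plus strand) had 5, 11 and 5 counts in PANC-1 controls, against 417 and 288 in AsPC-1 controls. PANC-1 held 1.64% of the AsPC-1 level (edgeR log2 fold change -5.93 with SE 0.23, adjusted p = 2.49e-12). ESRP2 (ENSG00000103067, chromosome 16, 68229111 to 68238102, minus strand) was higher in PANC-1, at 35.1, 34.4 and 34.3 CPM in PANC-1 controls and 15.5 and 19.0 CPM in AsPC-1 controls. The ESRP2 difference was 1.98-fold (edgeR log2 fold change 0.99 with SE 0.10, adjusted p = 4.27e-07). The exons of NFATC3 overlap those of ESRP2 on the opposite strand, and NFATC3 had 367, 311 and 364 counts in PANC-1 controls and 285 and 248 in AsPC-1 controls. Without the strand setting, reads in the shared stretch cannot be told apart. ESRP1 supplied 1.04 to 2.61% of the pair's level per kilobase in PANC-1 controls and 60.6 to 70.0% in AsPC-1 controls. The summed level was 6.32 ± 0.079 RPKM in PANC-1 and 8.96 ± 0.45 RPKM in AsPC-1, a ratio of 0.705, against a ratio of 1.02 on the TPM scale.

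Ranked per kilobase within a line, VIM led in PANC-1 controls at 389 ± 7.2 RPKM, followed by SNAI1 at 9.25 ± 0.46, ZEB1 at 6.25 ± 0.29 and ESRP2 at 6.22 ± 0.084 RPKM (SD, n = 3). ZEB1 and ESRP2 overlapped across the PANC-1 controls. EPCAM at 2.34 ± 0.37, CDH1 at 1.31 ± 0.12 and CDH2 at 0.640 ± 0.092 RPKM came next. ESRP1 at 0.099 ± 0.058, SNAI2 at 0.046 ± 0.010 and ZEB2 at 0.035 ± 0.011 RPKM were the lowest, and SNAI2 and ZEB2 overlapped. Their order depends on the exon length taken, which is 25058 bases for ZEB2, 4875 for ESRP1 and 3392 for SNAI2. In counts over the PANC-1 controls, ZEB2 held 39, more than ESRP1 with 21 and SNAI2 with 7. In AsPC-1 controls EPCAM led at 388 ± 22 RPKM, before VIM at 160 ± 4.7, CDH1 at 14.6 ± 0.79 and SNAI2 at 12.4 ± 0.0030 RPKM (SD, n = 2). ESRP1 at 5.86 ± 0.89, ZEB1 at 4.78 ± 0.059 and ESRP2 at 3.10 ± 0.44 RPKM followed, none of them overlapping its neighbour. SNAI1 at 0.409 ± 0.058 and ZEB2 at 0.024 ± 0.016 RPKM were near the bottom, with CDH2 at 0.

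MYEOV siRNA moved these genes far less than the lines differed. In PANC-1, only CDH1 was called among the 8 of 10 genes with enough counts to test, as higher. It measured 11.1, 12.2 and 9.91 CPM in PANC-1 siRNA libraries, against 7.50, 7.86 and 8.97 CPM in PANC-1 controls. Every siRNA library lay above every control, and the rise was 1.36-fold (edgeR log2 fold change 0.45 with SE 0.12, adjusted p = 0.0324). Across all genes, 9.08% were called in PANC-1, 4.16% as higher and 4.92% as lower, so 1 call among 8 genes is near the background. The call was lost with DESeq2 (adjusted p = 0.0842), with the replicate number as a block (edgeR adjusted p = 0.092), and without PANC-1 control replicate 1, siRNA replicate 1 or siRNA replicate 2 (edgeR adjusted p = 0.109, 0.118 and 0.124). The log2 fold change was 0.449 with DESeq2, 0.446 with the block and 0.390, 0.443 and 0.377 without those libraries. Without control replicate 2, the library farthest from its fellows, the adjusted p was 0.0498.

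The other epithelial genes of PANC-1 did not pass. EPCAM measured 7.79, 6.91 and 7.93 CPM in PANC-1 siRNA libraries, against 4.82, 6.31 and 6.51 CPM in controls, and was not called although the groups did not overlap (edgeR log2 fold change 0.36 with SE 0.14, adjusted p = 0.14). ESRP2 measured 38.9, 37.6 and 37.3 CPM in siRNA libraries, against 35.1, 34.4 and 34.3 CPM in controls, again without overlap and without a call (edgeR log2 fold change 0.13 with SE 0.065, adjusted p = 0.243). SNAI1 measured 14.2, 14.0 and 13.4 CPM in siRNA libraries, against 14.8, 15.6 and 16.4 CPM in controls. It too was not called and did not overlap (edgeR log2 fold change -0.17 with SE 0.091, adjusted p = 0.285). The share of all genes without overlap was not counted, so such separation is a description only. VIM and ZEB1 had estimates close to 0 (log2 fold changes 0.04 and -0.02, SE 0.038 and 0.062). CDH2, with 34 to 69 counts per siRNA library and 42 to 51 per control, had a log2 fold change of 0.08 with an SE of 0.21. ZEB2, with 12 to 17 counts per siRNA library and 10 to 18 per control, had 0.19 with an SE of 0.33. SNAI2 with 4, 4 and 2 counts in siRNA libraries against 3, 2 and 2 in controls, and ESRP1 with 9, 6 and 10 against 5, 11 and 5, were too low to test.

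In AsPC-1, CDH1, VIM and EPCAM rose together and ESRP1 fell, which made 4 of the 7 genes tested. Of all genes tested in AsPC-1, 32.9% were called, 16.6% as higher and 16.3% as lower. CDH1 measured 112, 105 and 104 CPM in AsPC-1 siRNA libraries, against 93.6 and 86.6 CPM in AsPC-1 controls (1.17-fold; edgeR log2 fold change 0.23 with SE 0.050, adjusted p = 6.87e-04). EPCAM measured 1211, 1280 and 1321 CPM in siRNA libraries, against 1015 and 938 CPM in controls (1.29-fold; edgeR log2 fold change 0.36 with SE 0.036, adjusted p = 1.82e-08). The mesenchymal filament gene VIM rose alongside these epithelial genes, with 953, 897 and 946 CPM in siRNA libraries and 841 and 807 CPM in controls (1.12-fold; edgeR log2 fold change 0.16 with SE 0.033, adjusted p = 3.53e-04). ESRP1 measured 21.3, 19.0 and 20.1 CPM in siRNA libraries, against 31.6 and 25.5 CPM in controls. It fell to 69.3% of control (edgeR log2 fold change -0.53 with SE 0.093, adjusted p = 7.10e-05). All 4 kept their calls in the alternatives run and without any single library. The 3′ untranslated region of ESRP1 holds 1 copy of CTCATGT, a word singled out in earlier results on these libraries. None of the other 9 genes holds it, and 11.33% of all genes do. The word was drawn from these same libraries, so its presence is a description only, and its part in the fall of ESRP1 was not tested.

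The transcription factors of AsPC-1 did not pass the test. SNAI2 measured 37.6, 37.6 and 39.8 CPM in siRNA libraries, against 41.9 CPM in each control. It was not called, although the groups did not overlap (edgeR log2 fold change -0.14 with SE 0.066, adjusted p = 0.101). ZEB1 measured 42.0, 35.8 and 37.9 CPM in siRNA libraries, against 41.7 and 41.0 CPM in controls, with overlap (edgeR log2 fold change -0.12 with SE 0.071, adjusted p = 0.228). ESRP2, the other splicing regulator, measured 16.2, 16.9 and 14.3 CPM in siRNA libraries and 15.5 and 19.0 CPM in controls (edgeR log2 fold change -0.13 with SE 0.11, adjusted p = 0.407). ESRP1 supplied 56.1 to 61.6% of the ESRP pair's level per kilobase in AsPC-1 siRNA libraries and 60.6 to 70.0% in AsPC-1 controls, ranges that overlap. SNAI1 had 8, 10 and 7 counts in siRNA libraries and 10 and 7 in controls, a ratio of 0.994 with a 95% counting interval of 0.516 to 1.96. ZEB2 had 8, 5 and 2 counts in siRNA libraries and 4 and 10 in controls, a ratio of 0.724 with an interval of 0.326 to 1.62. Neither these nor CDH2, at 0 counts throughout, had enough counts to test in AsPC-1.

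**Figure D5:**
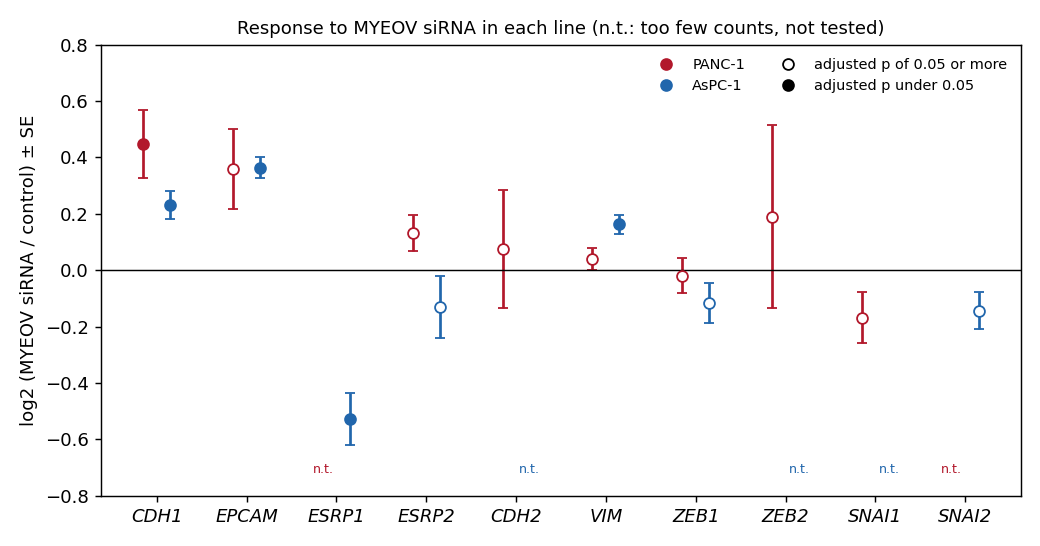
Log2 fold change of MYEOV siRNA over control with its SE for each gene in PANC-1 and AsPC-1; filled points passed an adjusted p of 0.05 and n.t. marks genes with too few counts to test. CDH1 and EPCAM have positive estimates in both lines, and ESRP1 in AsPC-1 has the lowest estimate at -0.53.

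Whether the response differed between the lines was tested directly, as the PANC-1 response minus the AsPC-1 response. None of the 10 genes passed this edgeR interaction test, against 4.36% of the 16680 genes tested (2.07% higher and 2.28% lower in PANC-1). DESeq2 called 0 of them as well. VIM was the 1 gene whose unadjusted edgeR p lay under 0.05 (difference -0.14 with SE 0.053, adjusted p = 0.17). The difference was 0.20 (SE 0.13) for CDH1, -0.02 (SE 0.14) for EPCAM, 0.25 (SE 0.13) for ESRP2 and 0.81 (SE 0.45) for ESRP1. These errors leave room for sizeable differences in ESRP1, where PANC-1 has few counts.

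Markers of other cell types moved in part with these comparisons. The 10 fibroblast markers summed to 106 to 109 CPM in AsPC-1 siRNA libraries and 296 to 310 CPM in AsPC-1 controls, nearly all of it from LUM, an extracellular matrix proteoglycan, and 1 of the 10 was above 1 CPM in either group. PDGFRA was at 0 in all 5 AsPC-1 libraries, and FAP and POSTN were at 0 in the AsPC-1 controls. In PANC-1 the fibroblast markers summed to 56.7 to 59.8 CPM in siRNA libraries and 41.9 to 49.6 CPM in controls, led by COL1A1, with DCN and FAP at 0. The 6 leukocyte markers summed to 0.947 to 1.73 CPM in PANC-1 libraries and 30.7 to 33.0 CPM in AsPC-1 libraries, where LYZ, the lysozyme gene, supplied most, while CD3E was at 0 in every library. Apart from these values, the part of such markers in the results was not tested.

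On the TMM scale, the partners of the cadherins were also mostly lower in PANC-1 controls than in AsPC-1 controls. Over all genes 40.3% were called higher and 36.1% lower, and the list counts between the lines stand against these shares. The lists too were chosen with earlier results of these data known. Of 11 adherens junction genes tested, 2 were higher and 8 lower, with a median log2 fold change of -0.68, against a median of 0.06 over all genes. On the TPM scale, 2 of these 8 had a ratio above 1 and 6 stayed lower. PLEKHA7 and NECTIN1, named next, had the lowest ratios of the list. PLEKHA7, an adherens junction adaptor, measured 8.67 CPM in PANC-1 controls and 128 CPM in AsPC-1 controls (edgeR adjusted p = 1.12e-14). The adhesion receptor gene NECTIN1 measured 22.0 CPM in PANC-1 controls and 189 CPM in AsPC-1 controls, whereas VCL, the vinculin gene, was 1.18-fold higher in PANC-1. Of 8 other cadherins tested, 3 were higher and 4 lower, close to the shares over all genes. CDH17, an intestinal cadherin, measured 9.50 CPM in PANC-1 controls and 2072 CPM in AsPC-1 controls (edgeR adjusted p = 4.63e-19), and CDH24 was 1.38-fold higher in PANC-1. Of 15 epithelial surface and junction genes tested, 3 were higher and 12 lower, with a median of -4.60, or -3.65 with the gene at 0 counts set to its bound. ST14, the gene of the membrane protease matriptase, measured 0.426 CPM in PANC-1 controls and 268 CPM in AsPC-1 controls, and the desmosomal cadherin gene DSG2 measured 15.4 CPM in PANC-1 and 1295 CPM in AsPC-1. PPL, which encodes the desmosomal protein periplakin, went the other way, at 99.0 CPM in PANC-1 controls and 12.6 CPM in AsPC-1 controls.

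Transcription factor and matrix lists split between the lines as well. Of 6 epithelial transcription factors tested, 1 was higher in PANC-1 and 5 lower (median -3.61). EHF, an ETS factor of epithelial cells, measured 0.260 CPM in PANC-1 controls and 329 CPM in AsPC-1 controls, and its relative ELF3 measured 8.11 CPM in PANC-1 and 302 CPM in AsPC-1. Of 8 other EMT transcription factors tested, 6 were higher and 2 lower (median 1.98), with the forkhead gene FOXC2 at 35.9 CPM in PANC-1 controls and 0.089 CPM in AsPC-1 controls. Its relative FOXC1 went the other way, at 11.1 CPM in PANC-1 and 40.7 CPM in AsPC-1. Of 17 mesenchymal matrix and cytoskeleton genes tested, 10 were higher and 5 lower (median 1.26). The matrix protein gene SPARC and the gelatinase gene MMP2 measured 231 and 179 CPM in PANC-1 controls and had 0 counts in both AsPC-1 controls. TNC, which encodes the matrix glycoprotein tenascin-C, measured 3.80 CPM in PANC-1 controls and 164 CPM in AsPC-1 controls, and S100A4, a calcium-binding protein gene used as a mesenchymal marker, measured 114 CPM in PANC-1 and 1062 CPM in AsPC-1.

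Further lists touch single members. Of 7 intermediate filament partners of vimentin tested, 4 were higher in PANC-1 and 2 lower, with nestin (NES) at 313 CPM in PANC-1 controls and 19.1 CPM in AsPC-1 controls and synemin (SYNM) at 93.5 CPM in PANC-1 and 5.93 CPM in AsPC-1. Of 9 other splice regulators tested, 4 were higher and 5 lower, against shares of 40.3% and 36.1% over all genes. QKI, an RNA-binding splice regulator, was 1.93-fold higher in PANC-1, whereas RBM47, an RNA-binding protein of epithelial cells, measured 8.20 CPM in PANC-1 controls and 167 CPM in AsPC-1 controls. Of 11 corepressors of ZEB and SNAIL proteins tested, 4 were higher and 5 lower, also against 40.3% and 36.1%. HDAC2, a histone deacetylase, was 2.20-fold higher in PANC-1, and SMARCA4, an ATPase of the SWI/SNF complex that binds ZEB1, measured 26.9 CPM in PANC-1 controls and 189 CPM in AsPC-1 controls. Of 7 genes of SNAIL turnover, 1 was higher (the ubiquitin ligase subunit gene FBXO45) and 3 lower. The direction of these lower calls depends on the scale, since BTRC, a ubiquitin ligase subunit that acts on SNAIL, had a PANC-1 to AsPC-1 ratio of 0.769 in CPM and 1.11 in TPM, and the kinase gene GSK3B, at 0.694 in CPM, had no difference left in TPM. Of 8 genes that cleave E-cadherin and EPCAM, 2 were higher and 5 lower, with the protease gene ADAM15 at 57.9 CPM in PANC-1 controls and 162 CPM in AsPC-1 controls. Over the 11 lists, 13 of the 56 genes called lower in PANC-1 had a ratio above 1 on the TPM scale, among them both called lower of the filament list, 3 of 5 splice regulators, 2 of 5 corepressors and 2 of 8 adherens junction genes, while all 12 epithelial surface genes and all 5 epithelial transcription factors stayed lower.

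The same lists responded modestly to MYEOV siRNA. In PANC-1, 3 of 11 adherens junction genes rose, where 4.16% of all genes were called higher, with plakoglobin (JUP) at 332 CPM in PANC-1 siRNA libraries and 278 CPM in controls (edgeR adjusted p = 0.0114) and VCL 1.19-fold higher (edgeR adjusted p = 0.00402). In AsPC-1, 6 of 11 rose, where 16.6% of all genes were called higher, with NECTIN1 at 241 CPM in AsPC-1 siRNA libraries and 189 CPM in controls (edgeR adjusted p = 1.66e-07) and NECTIN2 1.10-fold higher. Among genes that cleave E-cadherin and EPCAM, ADAM10, the main sheddase of E-cadherin, and APH1A, a subunit of gamma-secretase, fell in both lines. ADAM10 measured 155 CPM in PANC-1 siRNA libraries and 182 CPM in PANC-1 controls (edgeR adjusted p = 0.0258), and 223 CPM in AsPC-1 siRNA libraries and 292 CPM in AsPC-1 controls (edgeR adjusted p = 3.25e-09). RBFOX2, a splice regulator, measured 117 CPM in PANC-1 siRNA libraries and 170 CPM in PANC-1 controls, and 83.9 CPM in AsPC-1 siRNA libraries and 127 CPM in AsPC-1 controls (edgeR adjusted p = 2.05e-05 and 1.08e-10). FBXO11, a ubiquitin ligase subunit that acts on SNAIL, fell to 68.7% of control in PANC-1 and to 63.9% in AsPC-1.

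In the epithelial surface and the mesenchymal lists the calls went both ways in each line. Over all genes, 4.16% were called higher and 4.92% lower in PANC-1, and 16.6% higher and 16.3% lower in AsPC-1. Epithelial surface genes had 1 rise (PKP3) and 1 fall (PPL) among 11 tested in PANC-1. They had 4 rises and 4 falls among 14 in AsPC-1, where EVPL was 1.23-fold higher and CLDN7 fell to 74.4% of control. PPL fell in both lines, to 68.4% of control in PANC-1 and 60.7% in AsPC-1. Mesenchymal genes had 3 rises and 1 fall among 16 in PANC-1. In AsPC-1 they had 4 rises and 2 falls among 10, with TNC at 345 CPM in siRNA libraries and 164 CPM in controls (edgeR adjusted p = 1.92e-16). The collagen gene COL5A2 fell in both lines, to 83.1% of control in PANC-1 and 62.8% in AsPC-1. Of 6 epithelial transcription factors tested in AsPC-1, ELF3 fell, to 84.2% of control.

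The genes whose log2 CPM followed CDH1 most closely over the 11 libraries, among 10428 genes, were PDXDC1 (Pearson r = 0.9992), MT-RNR2 (r = 0.9989) and SMURF1 (r = 0.9987). For VIM they were CD24 (r = 0.999), ABCC4 (r = 0.999) and CD44 (r = 0.9989). The libraries fall into 2 clusters, one per line, so these values mainly describe the step between the lines and carry no test.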

How the data were processed

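The deposited files are 1 table per library of unnormalized counts, whole numbers of reads for each gene; the authors used HISAT2, HTSeq and hg19, per the submitters' processing notes, versions unstated. Libraries were sequenced as 150-base read pairs, per the labels' protocols. All 58735 identifiers occurred in GENCODE release 29 (GRCh38), which gave names, positions, exon lengths and 3′ untranslated regions; no coordinate came from the tables. Members and gene lists were chosen with earlier results of these data known.

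Groups came from sample titles. Each comparison was fitted over all genes in R 4.3.3 by the two-sided quasi-likelihood test of edgeR 4.0.16, after filterByExpr and TMM scaling, with p-values adjusted by Benjamini-Hochberg, threshold 0.05. An SE is the absolute log2 fold change over the square root of F. CPM values use TMM factors over all groups, and RPKM values divide them by exon-union length. Counts on genes per library (12113093 to 15066456) set the precision, and 3 counts was the limit that a count of 0 allows. Named list genes were at most the 2 largest called rises and falls per list above a mean log2 CPM of 3; 1 gene the rule takes is not reported here. The miR-200 rows and CTCATGT were added after values were seen. The alternatives tried were scaling by RLE or upper quartile, no filter, a 5 CPM filter, DESeq2 1.42.0, 1 fit over all groups, the siRNA libraries for the difference between lines, a replicate block, leaving out each library, and TPM for levels and list directions, the last chosen after seeing the data. Every replicate pair differed by more than Poisson noise, so none was merged. Python 3.11.15 with pandas 2.3.3 and matplotlib 3.10.9 did the rest.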

Additional observations from a re-analysis of the deposited data

Results flagged for a closer look

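MYEOV and 13 of the other genes that the naming rule took passed the edgeR interaction test. The rule takes only called genes, so the passing of these 13 follows from how they were picked, and their number is not a result. Over all 16680 genes tested, 4.36% passed. Each is given as the PANC-1 response minus the AsPC-1 response on the log2 scale. MYEOV itself differed by 0.586 (SE 0.102, edgeR adjusted p = 0.00153), with a response of -0.88 in PANC-1 and -1.48 in AsPC-1. The keratin genes KRT18 and KRT8 differed by -0.522 and -0.422 (edgeR adjusted p = 1.39e-05 and 1.25e-04). KRT18 fell by 0.34 in PANC-1 and rose by 0.17 in AsPC-1, whereas KRT8 fell by 0.42 in PANC-1 and was not called in AsPC-1 (edgeR estimate -0.01). PLEC, the gene of the filament linker plectin, differed by 0.46 (SE 0.068, edgeR adjusted p = 3.47e-04), with a rise of 0.29 in PANC-1 and a fall of 0.18 in AsPC-1. NES differed by 0.388 (edgeR adjusted p = 0.0215).

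Among junction and surface genes, NECTIN1 differed by -0.41 (edgeR adjusted p = 0.0111), EVPL by -0.295 (adjusted p = 0.0341), CLDN7 by 0.535 (adjusted p = 0.00212) and DSP, the desmoplakin gene, by 0.388 (adjusted p = 0.00626). All 4 were called in AsPC-1 and not in PANC-1. Among mesenchymal genes, the receptor kinase gene AXL differed by -0.504 (edgeR adjusted p = 4.56e-04), with rises of 0.26 in PANC-1 and 0.75 in AsPC-1. TNC differed by -0.594 (edgeR adjusted p = 0.0111) and COL5A2 by 0.388 (edgeR adjusted p = 0.00777). The protease gene ADAM15 differed by -0.362 (edgeR adjusted p = 0.011) and the splice regulator gene RBM47 by -0.445 (edgeR adjusted p = 0.0444).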

How the results depend on the processing

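Between lines, 9 genes of the 10 were called in nearly every alternative and without any library; a 5 CPM filter left 8, and the siRNA libraries gave 10, where ZEB2 was called (1.24, edgeR adjusted p = 0.0123). In AsPC-1 all alternatives kept 4 calls. In PANC-1, DESeq2 and the replicate block each gave 0 calls, and leaving out libraries gave 0 to 1. All genes called numbered 628 with the replicate block in PANC-1 (538 to 1712 without a library; lowest without siRNA replicate 1, 876 and 863 without siRNA replicates 2 and 3), 3070 with DESeq2 in AsPC-1, and for the difference in response 470 with the replicate block (305 to 1056 without a library; 305 and 315 without AsPC-1 control replicates 1 and 2, 475 without PANC-1 siRNA replicate 1). The causes were not tested. Same-numbered PANC-1 libraries had correlations of -0.049, -0.191 and -0.028 between their deviations from the group means. Differently numbered PANC-1 libraries ran from -0.144 to 0.184. Same-numbered AsPC-1 libraries had -0.032 and -0.033, but the deviations of 2 controls mirror each other. With so few libraries, these values cannot settle whether replicate numbers pair the libraries.

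Estimates that changed sign were none of them called. Without a library, ZEB2 between lines ran from -0.049 to 1.468, CDH2 in PANC-1 from -0.168 to 0.212, ZEB1 in PANC-1 from -0.039 to 0.02, and ESRP2 in AsPC-1 from -0.283 to 0.025. For the difference in response, CDH2 ran from -0.166 to 0.212, ZEB2 from -0.248 to 1.271 and EPCAM from -0.145 to 0.071. That of EPCAM was 0.005 with upper-quartile scaling, and with the replicate block it was 0.023 for EPCAM and -0.084 for CDH2. A fit that leaves 1 AsPC-1 control assumes that it varies like the other groups. Low counts limit ZEB2 in both lines, SNAI1 in AsPC-1, and SNAI2 and ESRP1 in PANC-1.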
